A study of Mus musculus with 2 samples.

Results

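Hox cluster genes encode homeodomain transcription factors that give cells their position along the body and along tubular organs. In mice they lie in 4 clusters, Hoxa, Hoxb, Hoxc and Hoxd, and members with the same paralog number, from 1 to 13, descend from the same ancestral gene and are most alike in sequence. Genes with high numbers sit at the 5′ end of each cluster and mark posterior structures. In the female tract of mice Hoxa9 is known from the oviduct, Hoxa10 from the uterus, Hoxa11 from the uterus and cervix, and Hoxa13 from the upper vagina, and loss of Hoxa10 or Hoxa11 impairs implantation and the decidual response of the stroma.

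The members were all probe sets annotated with a single gene symbol made of Hoxa, Hoxb, Hoxc or Hoxd and a number. There were 37 such probe sets for 31 genes, out of 20380 single-gene probe sets for 12393 genes. RefSeq lists 39 protein-coding genes in the 4 clusters. The remaining 8 were not analysed as members.

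The arrays compared implantation sites, the uterine segments that hold a conceptus and the maternal tissue around it, dissected on day 8 of pregnancy. The Cbs null group had 1 array, from females with the Cbs null genotype, and the control group had 1 array. The product of Cbs condenses homocysteine with serine. Which part of the gene was deleted is not given. All females were 4 months old on a C57Bl/6J X OLA129 background, so both groups shared sex, age, stage and background. Genotype is given for the uterus but not for the conceptus, and pooling of animals is not stated. The comparison asks which transcripts differ in these sites when the female lacks Cbs. With 1 array a genotype there was no replicate check and no test, so each value below describes these 2 arrays, and fewer cells of a type cannot be told apart from less RNA per cell.

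Signals are in linear units. A floor was set at 14.3, the 25th percentile of both arrays, and probe sets were taken as measured where the mean of both signals was at least 70.5, the median over 22626 probe sets, which left 11315 (50.01%). A probe set's signal also depends on its probes, so the signals of different genes are not an order of transcript amounts. Cbs itself was dim on both arrays. Its probe sets read 23.8 and 22.3 on the Cbs null array, against 30.3 and 29.9 on the control array, both lower in Cbs null sites and both below the filter. Whether these probes lie in the deleted part is not given, so the values are a weak check of the labels.

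Of the 37 Hox probe sets, 10 were measured (27%, beside 50.01% of all probe sets), and these stood for 9 genes. A further 7 were dim but above the floor on both arrays, 6 were under the floor on 1 array, and 14 were under it on both. The measured genes were Hoxa9, Hoxa10, Hoxa11, Hoxb2, Hoxb6, Hoxd8, Hoxd9, Hoxd10 and Hoxd11. They were concentrated in paralog groups 9 to 11, where 7 of 9 probe sets were measured, against 3 of 23 in groups 1 to 8 and 0 of 5 in groups 12 and 13. By cluster, 4 of 12 Hoxa, 2 of 10 Hoxb, 0 of 8 Hoxc and 4 of 7 Hoxd probe sets were measured. Hoxa9, Hoxa10 and Hoxa11 follow one another along chromosome 6 among protein-coding genes, and Hoxd8, Hoxd9, Hoxd10 and Hoxd11 follow one another along chromosome 2, so that 7 of the 9 genes lay in 2 unbroken runs. The same 10 probe sets passed when each array alone had to reach 70.5, so none was measured through 1 array.

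**Figure D1:**
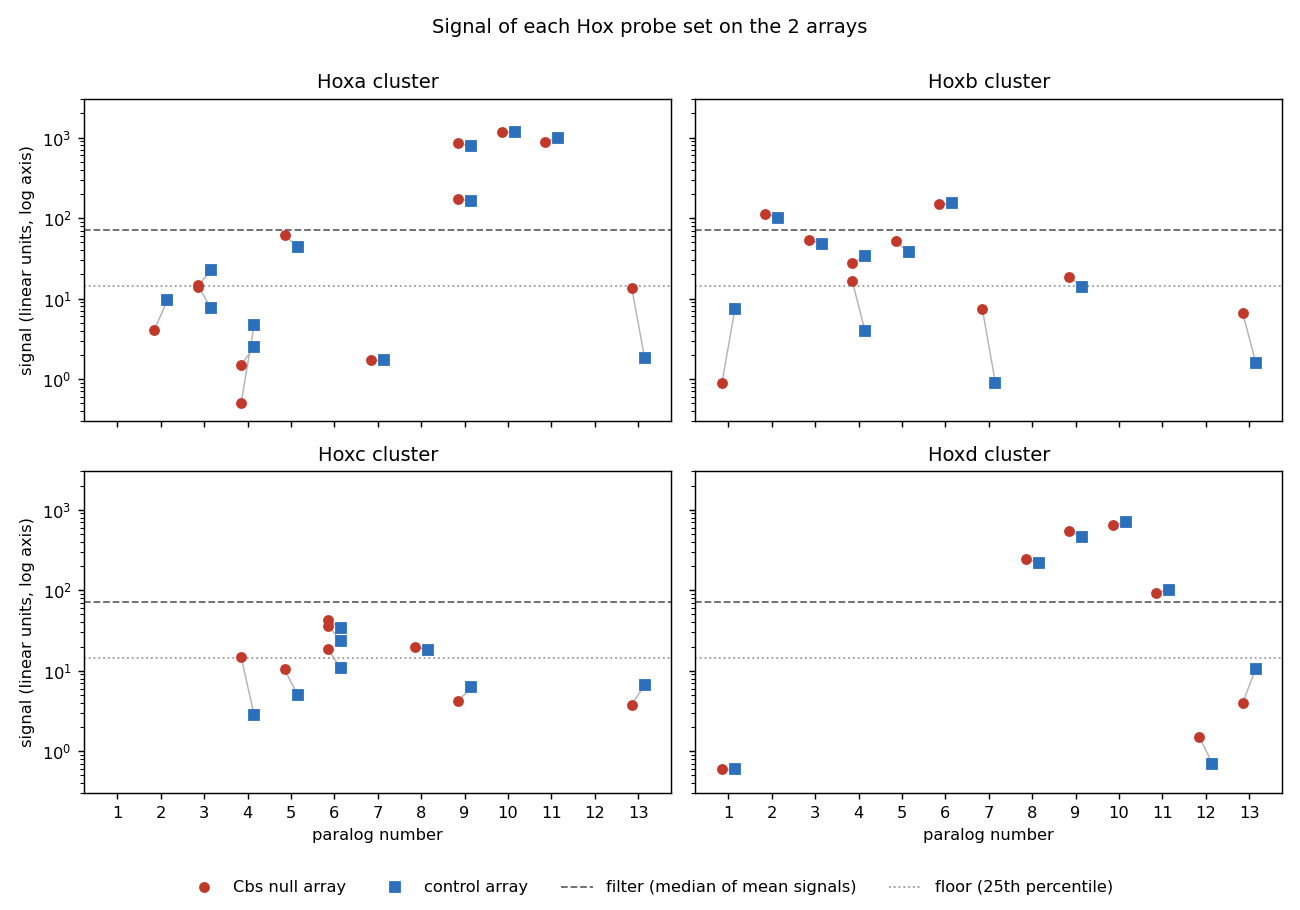
Signal of each of the 37 Hox probe sets (log axis, linear units) by cluster and paralog number, with the Cbs null array as circles left of the control array as squares and a line joining each pair. Signals above the dashed filter line at 70.5 lie in groups 9 to 11 of Hoxa and 8 to 11 of Hoxd, with Hoxb2 and Hoxb6 besides, and every Hoxc point lies below it.

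The RefSeq promoters of Hoxa10, Hoxa11 and Hoxa13 (GRCm38.p6, minus strand, 250 bases before to 50 bases after the start) are shown because these genes follow one another on chromosome 6, and the probe sets of Hoxa10 and Hoxa11 passed the filter while that of Hoxa13 was under the floor. Their probes differ, so this is no comparison of transcript levels along the chromosome. Capitals mark 3 promoter motifs, each searched on both strands. The GC box is spelled GGGCGG. The TATA box is spelled TATAAA. The CCAAT box is spelled as named. The windows are chr6:52234890-52235189 and chr6:52240805-52241104 for the 2 annotated starts of Hoxa10, chr6:52245761-52246060 for Hoxa11 and chr6:52260831-52261130 for Hoxa13.
Hoxa10, first window: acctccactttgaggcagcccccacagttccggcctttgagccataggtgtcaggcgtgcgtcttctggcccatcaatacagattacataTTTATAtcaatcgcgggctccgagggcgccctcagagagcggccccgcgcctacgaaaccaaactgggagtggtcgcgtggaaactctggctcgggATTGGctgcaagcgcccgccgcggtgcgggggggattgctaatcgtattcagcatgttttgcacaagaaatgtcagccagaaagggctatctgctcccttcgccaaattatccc
Hoxa10, second window: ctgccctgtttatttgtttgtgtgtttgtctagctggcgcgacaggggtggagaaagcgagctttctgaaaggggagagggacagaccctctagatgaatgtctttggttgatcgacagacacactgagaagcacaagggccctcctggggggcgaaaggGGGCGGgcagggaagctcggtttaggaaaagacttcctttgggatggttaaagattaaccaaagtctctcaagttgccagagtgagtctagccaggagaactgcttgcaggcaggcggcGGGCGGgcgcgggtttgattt
Hoxa11: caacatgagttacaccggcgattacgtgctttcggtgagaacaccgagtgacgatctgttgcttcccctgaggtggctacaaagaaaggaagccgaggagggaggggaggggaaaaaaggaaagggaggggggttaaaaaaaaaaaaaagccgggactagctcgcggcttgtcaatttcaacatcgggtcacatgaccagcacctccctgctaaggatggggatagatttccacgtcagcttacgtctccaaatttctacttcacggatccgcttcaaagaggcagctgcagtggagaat
Hoxa13: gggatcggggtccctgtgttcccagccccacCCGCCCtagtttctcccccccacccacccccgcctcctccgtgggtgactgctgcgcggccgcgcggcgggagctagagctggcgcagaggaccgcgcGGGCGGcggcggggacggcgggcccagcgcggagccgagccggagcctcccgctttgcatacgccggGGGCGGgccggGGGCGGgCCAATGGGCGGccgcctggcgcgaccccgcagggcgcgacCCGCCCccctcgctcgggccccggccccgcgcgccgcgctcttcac

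The first Hoxa10 window held a TATA box and a CCAAT box, the second held 2 GC boxes, the Hoxa11 window held none of these motifs, and the Hoxa13 window held 6 GC boxes and a CCAAT box. GC content was 57.3% and 54.3% in the Hoxa10 windows, 51.0% in that of Hoxa11 and 81.0% in that of Hoxa13. Promoters were found for 18 of the 31 genes, in 20 windows. CpG dinucleotides occurred at a median of 0.59 of the number expected from base content in the 20 windows, beside 0.38 over all 32851 promoter windows. The median was 0.60 for the 9 windows of measured genes and 0.59 for the 11 windows of genes below the filter. The 9 windows came from 7 genes, with 2 windows each for Hoxa10 and Hoxd11. No window was found for Hoxb2 and Hoxb6. A GC box was present in 8 of the 20 Hox windows, beside 35.7% of all windows, a TATA box in 2, beside 13.6%, and a CCAAT box in 11, beside 37.4%. Split by signal, windows of measured genes held a GC box in 4 of 9, a TATA box in 1 and a CCAAT box in 3, and windows of genes below the filter held them in 4, 1 and 8 of 11. These are matches of letters and do not show which factors bind.

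No measured Hox probe set differed by as much as 1.5-fold between the arrays. The share of all 11315 measured probe sets that were at least 1.5-fold higher in Cbs null sites was 2.6%, and the share at least 1.5-fold lower was 1.65%, so 0 of 10 in either direction lay near the background. The log2 ratios of Cbs null over control ran from -0.19 for Hoxa11 to 0.25 for Hoxd9. Their median was 0.06, with 6 above 0 and 4 below, beside a median of 0.01 and 52.9% above 0 over all measured probe sets. All 10 lay inside the range of -0.52 to 0.59 that held the middle 95% of measured probe sets, and 6 of them between the quartiles (-0.13 and 0.16).

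In the Hoxa cluster, Hoxa10, which stromal cells of the uterus need to respond to progesterone, read 1177.1 on the Cbs null array and 1159.9 on the control array. The 2 values were nearly equal, with a log2 ratio of 0.02. Hoxa11, the neighbouring gene that stroma and gland formation require, read 877.0 on the Cbs null array and 1001.2 on the control array, a log2 ratio of -0.19 (1.14-fold lower). It was the lowest ratio among the measured Hox probe sets. Hoxa9 had 2 probe sets, and both were slightly higher in Cbs null sites. The brighter read 849.1 on the Cbs null array and 789.3 on the control array, with a log2 ratio of 0.11. The dimmer read 174.1 on the Cbs null array and 161.4 on the control array, also at 0.11. The ratios of both probe sets were alike. For scale, the difference of log2 ratios between the 2 brightest probe sets of a gene had an SD of 0.30 over 2284 genes.

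In the Hoxd cluster, whose 5′ genes pattern limbs, axial skeleton and urogenital tract, 2 measured genes had ratios above 0 and 2 below. Hoxd10 read 644.4 on the Cbs null array and 702.6 on the control array, a log2 ratio of -0.12. Hoxd11 read 93.3 on the Cbs null array and 100.6 on the control array, a log2 ratio of -0.11. Both were slightly lower in Cbs null sites, 1.09-fold for Hoxd10 and 1.08-fold for Hoxd11. Hoxd9 read 548.7 on the Cbs null array and 460.0 on the control array, a log2 ratio of 0.25 (1.19-fold higher), the highest of the measured Hox probe sets. Hoxd8 read 245.6 on the Cbs null array and 218.8 on the control array, a log2 ratio of 0.17. Ratios thus differed in sign between Hoxd8 and Hoxd9 on one side and Hoxd10 and Hoxd11 on the other, each within the range of most probe sets.

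The Hoxb cluster gave 2 measured genes that do not lie next to each other. Hoxb6, a gene of the middle of the cluster, read 149.1 on the Cbs null array and 152.2 on the control array, a log2 ratio of -0.03. Hoxb2, which is known from hindbrain patterning, read 113.0 on the Cbs null array and 100.2 on the control array, a log2 ratio of 0.17. Neither reached 1.5-fold.

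**Figure D2:**
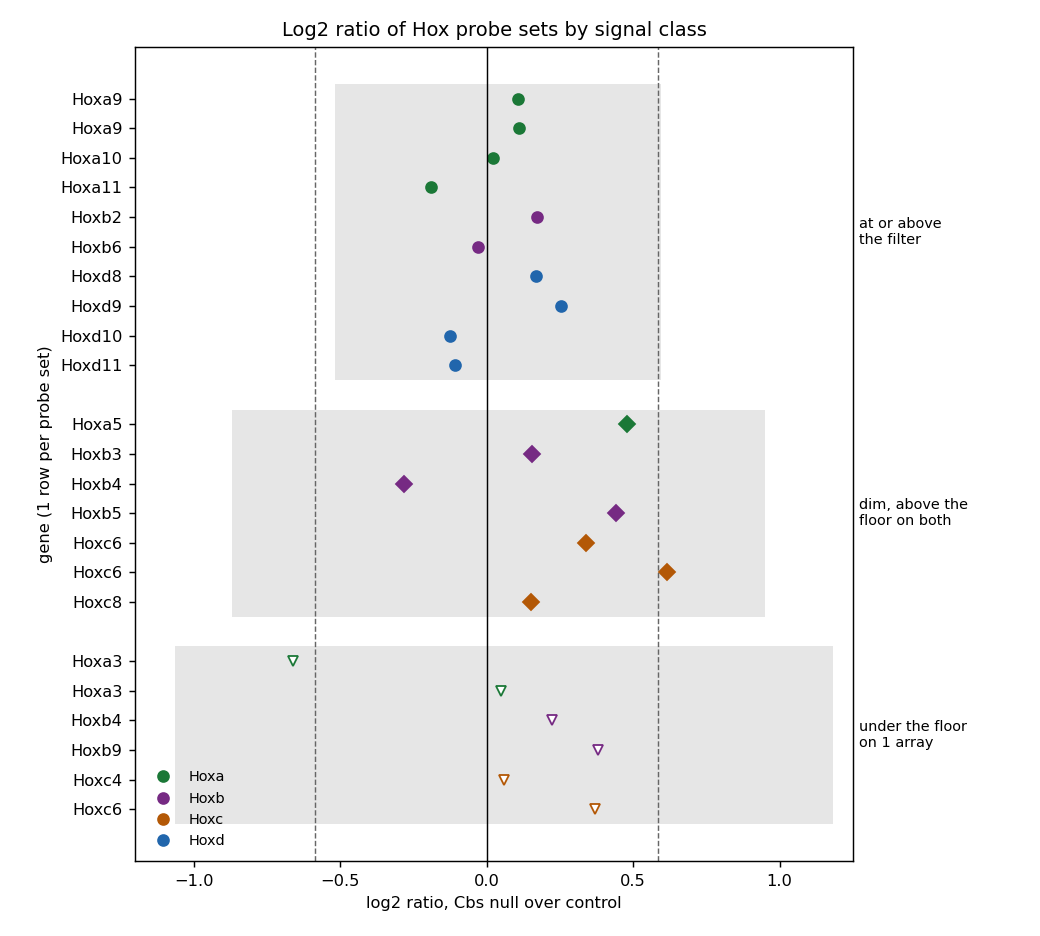
Log2 ratio of Cbs null over control for the 23 Hox probe sets with a value above the floor on at least 1 array, grouped by signal class and coloured by cluster. Grey bands span the middle 95% of all probe sets of the class, dashed lines mark 1.5-fold, and open triangles have 1 value raised to the floor. The 10 measured probe sets lie between -0.19 and 0.25.

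Among the 7 dim Hox probe sets the median log2 ratio was 0.34, with 6 above 0, beside a median of 0.02 and 51.5% above 0 for all 4987 probe sets of that class. In this class 9.5% of probe sets were at least 1.5-fold higher in Cbs null sites and 7.36% at least 1.5-fold lower. Of the Hox probe sets 1 was at least 1.5-fold higher and 0 lower, and all 7 lay inside the middle 95% of the class (-0.87 to 0.95). The probe set past the limit was one of Hoxc6, which read 36.3 on the Cbs null array and 23.7 on the control array, a log2 ratio of 0.62. Another Hoxc6 probe set read 42.8 on the Cbs null array and 33.8 on the control array, a log2 ratio of 0.34. They share a gene and are not independent. The remaining Hoxc6 probe set read 18.5 on the Cbs null array and 10.7, under the floor, on the control array.

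Hoxa5, known from lung and cervical skeleton, read 61.3 on the Cbs null array and 44.0 on the control array, a log2 ratio of 0.48. With a mean of 52.65 it was the brightest member outside the filter, and Hoxd11, with a mean of 96.95, the dimmest inside it. Hoxb5 read 51.2 on the Cbs null array and 37.7 on the control array, a log2 ratio of 0.44, so that both genes of paralog group 5 in this class were higher in Cbs null sites. Hoxb3 had a ratio of 0.15, from signals of 53.4 in Cbs null and 48.0 in control sites. Hoxc8 also had 0.15, from signals of 20.0 in Cbs null and 18.0 in control sites. The probe sets of Hoxb4 went opposite ways. The brighter read 27.6 on the Cbs null array and 33.6 on the control array, a log2 ratio of -0.28, and the other read 16.7 on the Cbs null array and 3.9, under the floor, on the control array.

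Among the 6 Hox probe sets under the floor on 1 array, 5 were above it only in Cbs null sites and 1, of Hoxa3, only in control sites. Of all 1368 probe sets of this class 48.0% had ratios above 0, 13.8% were at least 1.5-fold higher in Cbs null sites and 12.4% at least 1.5-fold lower. That Hoxa3 probe set read 14.1 on the Cbs null array and 22.6 on the control array, at least 1.58-fold lower against the floor. The other Hoxa3 probe set was on the opposite side, with 14.8 on the Cbs null array and 7.6 on the control array. Hoxb9 read 18.6 on the Cbs null array and 14 on the control array, and Hoxc4 read 14.9 on the Cbs null array and 2.8 on the control array. All of these values are close to the floor or under it.

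Signals under the floor on both arrays have no order and no ratio was taken. They included all members of paralog groups 12 and 13, with signals between 1.5 and 13.5 on the Cbs null array and between 0.7 and 10.6 on the control array. In this set were Hoxa13, at 13.5 in Cbs null and 1.8 in control sites, Hoxd13, a gene of digits and external genitalia, at 4.0 in Cbs null and 10.6 in control sites, and Hoxb13, at 6.6 in Cbs null and 1.6 in control sites. Hoxc13 was at 3.8 in Cbs null and 6.7 in control sites, and Hoxd12 at 1.5 in Cbs null and 0.7 in control sites. The first paralog group, represented by Hoxb1 and Hoxd1, was there too, at no more than 0.9 in Cbs null and 7.5 in control sites. The remaining members under the floor were Hoxa2, Hoxa4 with both its probe sets, Hoxa7, Hoxb7, Hoxc5 and Hoxc9. They read between 0.5 (Hoxa4) and 10.4 (Hoxc5) on the Cbs null array and between 0.9 (Hoxb7) and 9.5 (Hoxa2) on the control array. A signal under the floor does not show that a transcript was absent.

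**Figure D3:**
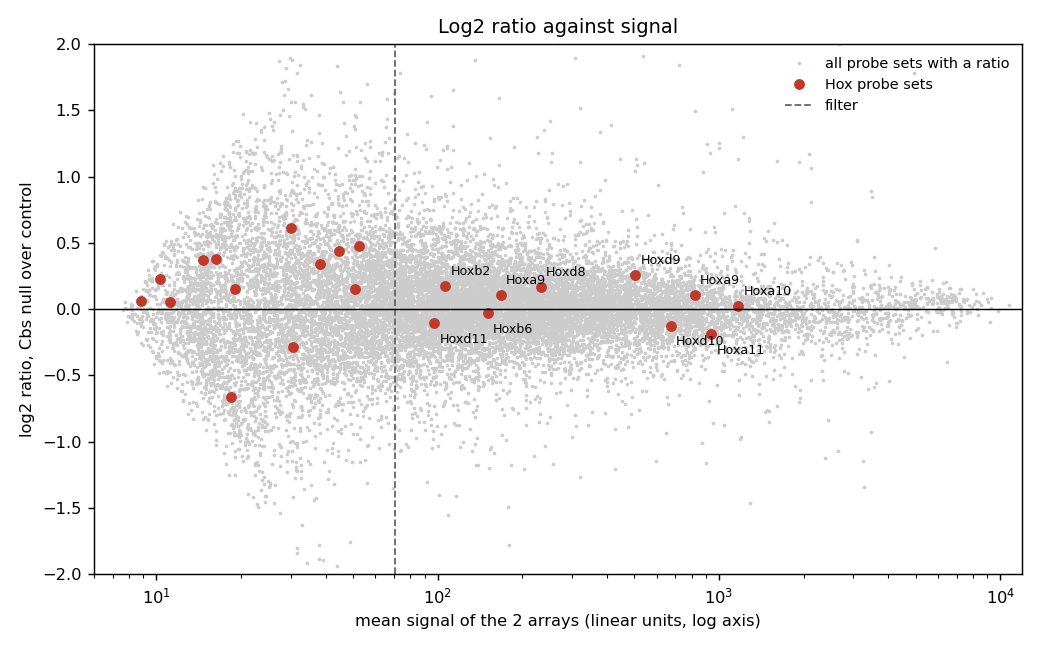
Log2 ratio of Cbs null over control against mean signal (log axis) for all probe sets with a ratio in grey and the Hox probe sets in red, with the measured ones named. The axes leave out 17 probe sets, and the spread of all probe sets narrows with signal around the Hox points.

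Hox proteins act with partners. The TALE proteins of the Pbx, Meis, Pknox and Tgif families share a class of homeodomain, and Pbx, Meis and Pknox proteins bind DNA beside Hox proteins. Of 10 such genes on the array 7 were measured. All 7 had ratios above 0, beside 3894 of all 7079 measured genes. In either direction 0 reached 1.5-fold, beside 2.46% of all measured genes that were higher and 1.33% that were lower. The median log2 ratio of the 7 genes was 0.11, beside 0.02 over all measured genes and 0.02 over the 9 Hox genes. Meis2 read 684.3 on the Cbs null array and 633.9 on the control array, and Meis1 read 361.7 on the Cbs null array and 342.0 on the control array. By the brightest probe set Pknox1 had the highest ratio of the list, at 0.45, but its other probe set, below the filter, had -0.47. Pbx2 had 0.01 at its brightest probe set and 0.39 and 0.54 at its other measured ones.

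Upstream regulators of Hox genes include Cdx factors and retinoic acid, which is made by Aldh1a enzymes, degraded by Cyp26 enzymes and sensed by Rar and Rxr receptors. Of 15 genes on the array 7 were measured, with a median log2 ratio of 0.15. By its brightest probe set only Rxrb, a retinoid X receptor, was at least 1.5-fold apart, with 300.4 in Cbs null and 192.0 in control sites (log2 ratio 0.65). Of all measured genes 2.46% were at least 1.5-fold higher in Cbs null sites. Egr2, a hindbrain regulator of Hox genes, had measured probe sets that differed. The brighter read 206.4 on the Cbs null array and 204.5 on the control array (0.01), and the dimmer read 171.5 on the Cbs null array and 110.8 on the control array (0.63). Aldh1a2, which makes retinoic acid in the decidual stroma, had the lowest ratio of the list, at -0.27, with 1509.7 in Cbs null and 1818.9 in control sites. Cdx1 and Cdx4 were under the floor on both arrays.

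Polycomb proteins keep Hox genes silent and Trithorax proteins keep them active. Of 19 Polycomb genes on the array 16 were measured, 9 with ratios above 0, and the median was 0.02. None reached 1.5-fold. The histone-binding subunits Rbbp7 and Rbbp4 had ratios of 0.16 and 0.05, and the methyltransferase Ezh2 had 0.07. Of 11 genes in the Trithorax and H3K27 demethylase list 9 were measured, with a median of -0.03 and 0 past 1.5-fold. In both lists a count of 0 lay near those shares. The remodeller Smarca4 had -0.08 and the boundary factor Ctcf -0.04, while Kmt2a, which methylates histone H3 at Hox genes, had 0.24.

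Genes that earlier work links to Hoxa10 or Hoxa11 numbered 14 on the array, of which 8 were measured, 5 with ratios above 0. Their median log2 ratio was 0.09 and 0 reached 1.5-fold, near the 2.46% of all measured genes that were higher and 1.33% that were lower. The decidual prolactin Prl8a2 had the highest, at 0.52, with 3633.6 in Cbs null and 2542.7 in control sites. The prostaglandin E receptors Ptger4 and Ptger3, whose uterine levels depend on Hoxa10 in mice, both had 0.25. Cdkn1c, a cell cycle inhibitor of decidual cells, had -0.28. Among 17 other regulators of uterine stroma on the array 13 were measured, 8 with ratios above 0, and the median was 0.03. Bmp2, a growth factor that decidual cells need, was the only one at least 1.5-fold apart, with 258.0 in Cbs null and 597.0 in control sites. Of all measured genes 1.33% were at least 1.5-fold lower in Cbs null sites.

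Of 16 genes near the Hox clusters on the array 10 were measured, 5 with ratios above 0 and 5 below, with a median of -0.00 and a range of -0.11 to 0.22. Atp5g3, a subunit of ATP synthase, had -0.08 and Hibadh, an enzyme of valine breakdown that lies beyond the 5′ end of Hoxa, had 0.15. Of 34 homeobox genes outside the clusters 12 were measured, with a median of 0.08. Prrx2, a mesenchymal homeobox gene, was the only one at least 1.5-fold apart, with 130.5 in Cbs null and 85.9 in control sites (log2 ratio 0.60). The share of all measured genes at least 1.5-fold higher was 2.46%.

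**Figure D4:**
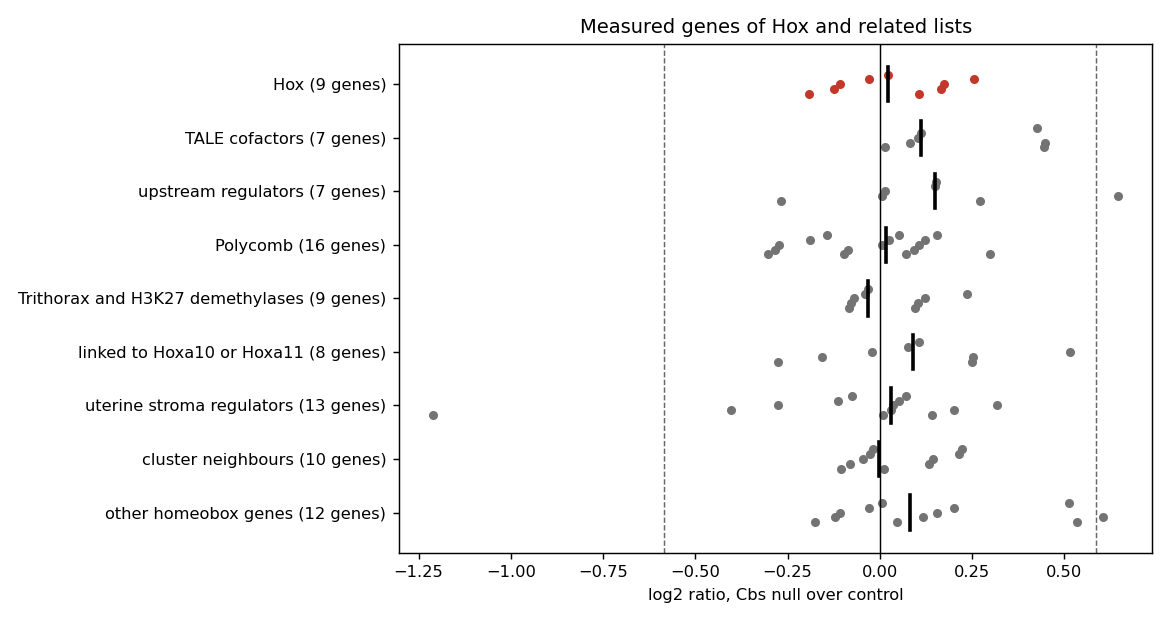
Log2 ratio of Cbs null over control for the measured genes of Hox and of 8 related lists, 1 point per gene by its brightest probe set, with the median as a bar and 1.5-fold as dashed lines. The 9 Hox genes span -0.19 to 0.25, and the points past the lines are Rxrb, Prrx2 and, in the list of uterine stroma regulators, Bmp2.

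Markers of the tissues in the sites were read on the same arrays. All 4 smooth muscle markers were measured, with summed signals of 19282.1 in Cbs null and 19660.1 in control sites, and 5 of 6 stromal and decidual markers, with sums over all 6 of 11144.8 in Cbs null and 9504.9 in control sites. Within the stromal list Prl8a2 had a log2 ratio of 0.52, Dcn 0.20, Hand2 0.04 and Wnt4 0.03. Bmp2 had -1.21 and Pgr, below the filter, -0.30. The 4 epithelial markers summed to 2053.6 in Cbs null and 1488.8 in control sites, with 3 above 0. Of 11 embryonic markers on the array 0 were measured and 7 were under the floor on both arrays, with sums of 167.0 in Cbs null and 153.7 in control sites. For 3 yolk sac markers the sums were 511.6 in Cbs null and 71.3 in control sites. Of these Afp read 384.6 on the Cbs null array and 24.7 on the control array. Ttr read 113.6 on the Cbs null array and 33.0 on the control array, and Apob was under the floor on both. For 2 trophoblast markers the sums were 623.1 in Cbs null and 252.5 in control sites. Within that pair Tpbpa read 598.7 on the Cbs null array and 228.1 on the control array, and Ascl2 read 24.4 on both. The part of these tissues in the Hox signals was not tested.

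Probe sets in the clusters that are no members gave further values. Hoxa11os, the antisense RNA transcribed opposite Hoxa11, read 355.0 on the Cbs null array and 370.6 on the control array, a log2 ratio of -0.06. The sign was that of Hoxa11, at a smaller size. A probe set shared by Hoxd4 and Hoxd3 read 72.1 on the Cbs null array and 73.3 on the control array (-0.02). Its mean of 72.7 passed the filter, but as a shared probe set it was not counted in groups 1 to 8. A second probe set of this pair read 43.1 on the Cbs null array and 40.4 on the control array (0.09).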

How the data were processed

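Per the labels' protocols, 2 microg of total RNA a sample gave biotinylated cRNA for Affymetrix arrays, 1 a genotype. The authors deposited linear intensity, 1 signal for each probe set on each array. GCOS 1.4 is named in the submitters' processing notes. Its algorithm and any genome build are not stated. Trimmed by 2%, mean signals were 200.08 on both arrays, so no further scaling was applied. After 64 control probe sets were set aside, symbols came from the platform annotation, and all 37 Hox probe sets matched RefSeq by gene identifier.

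Values were raised to the floor before log2 ratios were taken, and no ratio was taken where both lay under it. Precision is limited by having 1 array a group and, for dim genes, by signal over background. With 1 array a group no test was run. Lists are described at the brightest measured probe set of each gene. All Hox members are given, and from each list up to 4 genes at least 1.5-fold apart or else the 2 brightest, while other names were chosen after their values were seen. The members and lists were chosen with earlier results of these data known. Alternatives were quantile normalization, median centring, loess with a span of 0.3, other floors and filters, a pseudocount and other choices of probe sets. Scripts were tested on simulated data. Python 3.11.15, pandas 2.3.3 and statsmodels 0.14.6 were used.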

Additional observations from a re-analysis of the deposited data

Results flagged for a closer look

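A probe set outside the member list, annotated with both Hoxb8 and Hoxb7, had a signal on the Cbs null array above that of the control array. It read 87.7 on the Cbs null array and 43.4 on the control array, a log2 ratio of 1.01 (2.02-fold higher). Its mean of 65.55 lies under the filter of 70.5. Among all 4987 dim probe sets above the floor on both arrays, 9.5% were at least 1.5-fold higher in Cbs null sites. The ratio of this probe set ran from 0.82 to 1.01 over 6 other scalings and floors of the same 2 arrays. These settings were those used for the members, but this probe set was added to them after seeing the data. The probe set annotated with Hoxb7 alone was under the floor on both arrays, at 7.4 in Cbs null and 0.9 in control sites, and no probe set annotated with Hoxb8 alone was used here. Which of the 2 genes gives the signal was not tested, and there is no replicate check.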

How the results depend on the processing

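The number of measured Hox probe sets followed the filter, by its construction: 20 passed with the filter at the 25th percentile, 6 at the 75th and 37 with no filter, of which 23 had a ratio. With the lower filter, and likewise with none, 1 Hox probe set was at least 1.5-fold higher (Hoxc6) and 1 at least 1.5-fold lower (Hoxa3), and the median ratio was 0.15 instead of 0.06. The Hoxc6 probe set was in the dim class, where 9.5% of all probe sets were at least 1.5-fold higher. That of Hoxa3 was under the floor on 1 array, where 12.4% of all probe sets were at least 1.5-fold lower. Counts of 1 thus lay near the background. Under quantile normalization, median centring, loess, floors at the 10th and 40th percentiles and a pseudocount, the 10 measured probe sets kept their signs, between -0.21 and 0.25, and none reached 1.5-fold. With 1 probe set a gene the median was 0.02 over 9 genes. The ratios of probe sets under the floor on 1 array depended on it. Lowering it to the 10th percentile took 4 of them past 1.5-fold that had been within it: Hoxc4 had 2.31 instead of 0.06, the dimmer Hoxb4 probe set 2.10 instead of 0.22, the dimmer Hoxa3 probe set 0.96 instead of 0.05 and the dimmest Hoxc6 probe set 0.79 instead of 0.37. With the pseudocount, Hoxc4 and the dimmer Hoxb4 probe set both had 0.77. The Hoxc6 probe set past 1.5-fold then had 0.41 instead of 0.62, within the limit. The brighter Hoxa3 probe set had -0.38 instead of -0.66, also within it. With the floor at the 40th percentile neither of these had a ratio. No Hox probe set with a ratio changed sign in the settings that gave it one. Probe sets under the main floor on both arrays were not checked. No paired analysis was possible because each genotype has 1 array. No replicate could be left out for the same reason.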
